A study of Mus musculus with 24 samples.

Results

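Genes that encode regulatory subunits of protein phosphatase 1 (PP1) were followed through a single day in mouse heart. They were chosen by name as every gene whose symbol starts with Ppp1r and a number, leaving out the Ppp1r3 genes of glycogen metabolism, and 35 of the 22180 genes analysed met this rule. Of these, 33 were protein-coding and 2, Ppp1r2-ps7 and Ppp1r2-ps9, were pseudogenes. A further 2 symbols of the rule, Ppp1r1b and Ppp1r2-ps3, were named only on probe sets shared with another gene. Neither shared probe set differed among the times (adjusted p = 0.148 and 0.243 in limma), and both were kept out of all counts.

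The donors were wild-type C57Bl/6 males aged 8 weeks that lived in 12 h of light and 12 h of dark. Hearts were taken at 6 zeitgeber times (ZT, counted in hours from lights-on). ZT03, ZT07 and ZT11 fall in the light phase, called day below, and ZT15, ZT19 and ZT23 in the dark phase, called night. Total RNA of snap-frozen myocardium was hybridised to Affymetrix arrays, with 4 arrays at each time that the labels call biological replicates, 24 in all. The deposited values are taken as log2 values, and each probe set is centred on its own median over the 24 arrays. Every value below is therefore a log2 difference from a gene's median, without a level, so no gene can be called more abundant than another and the tissue cannot be checked against the level of heart markers. The arrays cover 1 cycle, the light cycle and the clock cannot be told apart, and neither can time and any batch, since the labels give none. The tissue is a mixture, in which fewer cells of a type and less RNA per cell cannot be told apart. Array medians lay between -0.00223 and 0.00731, and the SD over all probe sets was 0.171 in ZT15 replicate 1, the most scattered array, followed by replicate 4 of ZT23 (0.155) and of ZT07 (0.153).

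PP1 is a serine and threonine phosphatase whose catalytic subunit has little choice of substrate by itself. Regulatory proteins dock on it, most through a short motif, and place it at a structure, choose its substrates or block its active site. In heart muscle the enzyme opposes cyclic AMP-dependent kinase at the proteins that handle calcium, and inhibitor-1, the product of Ppp1r1a, holds it back once that kinase has phosphorylated the inhibitor. Myosin phosphatase, PP1 bound to a MYPT subunit, removes phosphate from myosin light chains. GADD34 and CReP, encoded by Ppp1r15a and Ppp1r15b, bring PP1 to the translation factor eIF2α, and PNUTS, encoded by Ppp1r10, brings it to transcribing RNA polymerase II.

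RNA differed with time of day in 7 of the 35 genes, by 1 of 2 tests. Ppp1r10, Ppp1r15a and Ppp1r15b passed the test among the 6 times and not that for a 24-h rhythm. Ppp1r12b, Ppp1r14c, Ppp1r16b and Ppp1r35 passed the rhythm test and not that among the 6 times. Ppp1r16b came close among the times (adjusted p = 0.0697 in limma) and passed without ZT07 replicate 2 (0.0185). Rhythm means a 24-h cosine fitted to the 24 arrays, the comparison among times makes no assumption of shape, and both are moderated F tests of limma at a Benjamini-Hochberg adjusted p below 0.05 over all genes. A rhythm was found in 4 of 35 members (11.4%), against 7.61% of all genes, and a difference among the times in 3 of 35 (8.57%), against 4.72% of all genes. Either was found in 7 of 35 members, against 8.26% of all genes, and both together in 0 of 35, against 4.06%. Single times set against the other 5 gave calls in the same 3 members as the test among times, against 4.3% of all genes. Passing among the times but not for a rhythm was seen in 3 members, against 0.654% of all genes. At an unadjusted p below 0.05 the rhythm test gave 7 members, against 19.5% of all genes, and the test among times gave 9 (25.7%), against 16.8%. Those 9 included all 7 genes that passed 1 of the 2 tests after adjustment, so the split into 2 groups rests on the threshold.

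Most members moved little through the day. The range of the 6 time means was under 0.1 in 9 members, 0.1 to 0.2 in 14, 0.2 to 0.3 in 6 and over 0.3 in 6. Its median was 0.183 over the members and 0.135 over all genes. The widest range, 0.593 in Ppp1r10, was a 1.51-fold change, while the widest of any gene was 2.58. Spread between replicates was also somewhat larger, with a median pooled SD within times of 0.111 over the members and 0.0964 over all genes. ZT23 was the time of the lowest mean in 14 of 35 members (40.0%), against 19.6% of all genes, and ZT07 that of the highest mean in 11 (31.4%), against 15.6%. These are counts of means, most of which do not differ beyond their replicate spread.

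**Figure D1:**
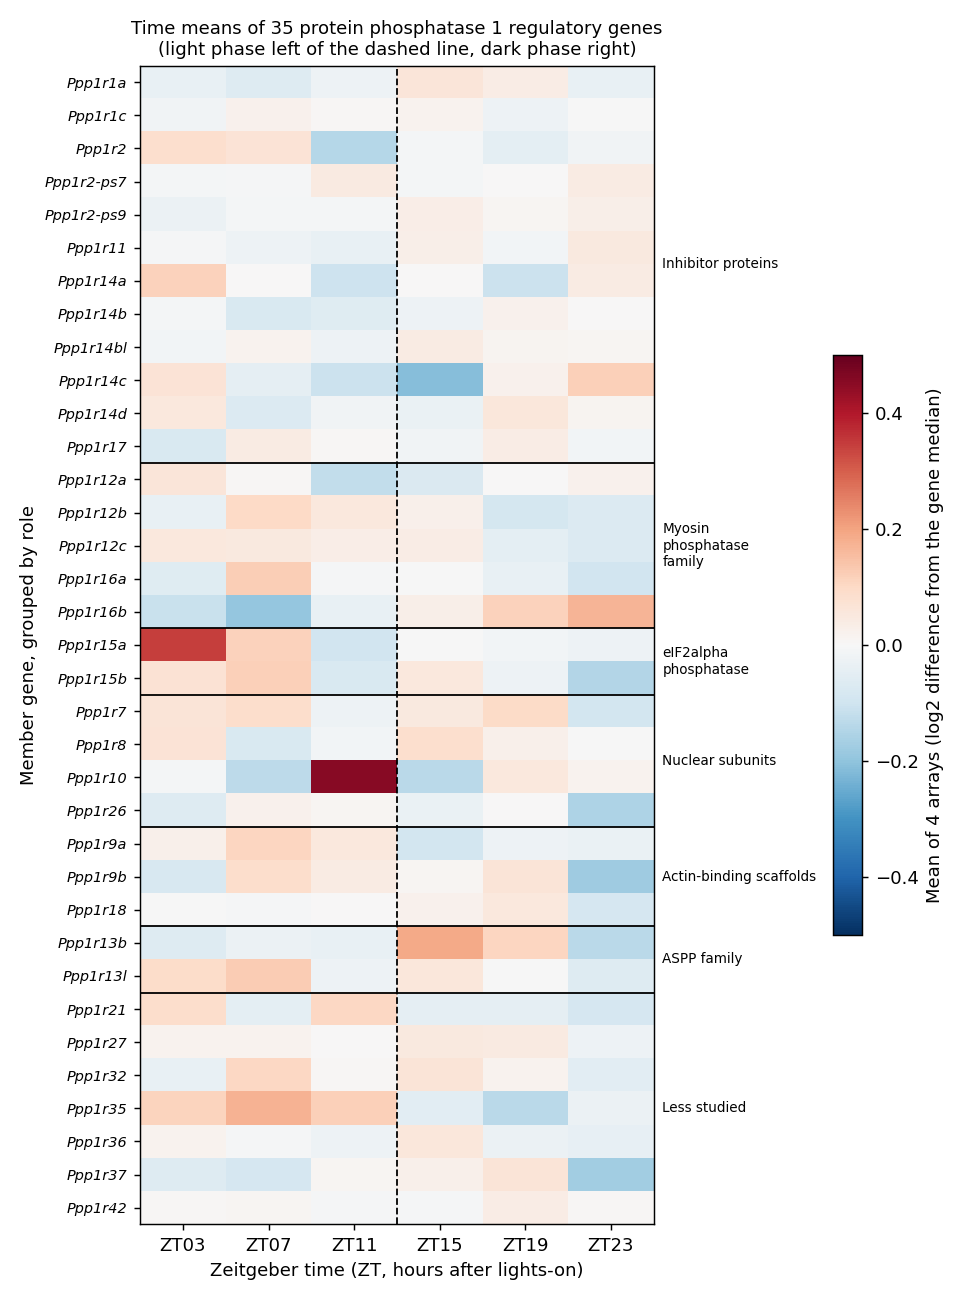
Mean log2 difference from the gene median at each zeitgeber time (columns, 4 arrays each) for the 35 genes (rows, grouped by role), with the light phase left of the dashed line. The darkest cells are Ppp1r10 at ZT11 (0.46) and Ppp1r15a at ZT03 (0.35), and the column at ZT23 holds the lowest mean of 14 genes.

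Ppp1r10 was high at a single time, the end of the light phase. It encodes PNUTS, the nuclear targeting subunit of PP1, which acts on the polymerase II tail and on the elongation factor SPT5 when transcription ends. At ZT11 replicates 1 to 4 read 0.50, 0.57, 0.32 and 0.44. The other light times gave -0.30, -0.010, 0.24 and 0.032 at ZT03 and -0.26, -0.12, -0.13 and -0.015 at ZT07. The dark times gave -0.27, 0.017, -0.022 and -0.27 at ZT15, -0.0024, 0.026, 0.0024 and 0.19 at ZT19, and -0.055, -0.11, 0.13 and 0.10 at ZT23. All 4 arrays of ZT11 lay above the other 20, the highest of which was ZT03 replicate 3, and such a separation at ZT11 was found in 0.113% of all genes. It was the only member of which all 4 arrays of any time stood above or below the other 20, against 0.78% of all genes.

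The mean of Ppp1r10 was 0.46 ± 0.11 at ZT11, against -0.14 ± 0.16 at ZT15 and -0.13 ± 0.099 at ZT07, its lowest times (SD, n = 4 each). ZT11 was higher than the mean of the other 5 times by 0.50 ± 0.072 (SE), or 1.41-fold, with an adjusted p of 0.000361 in limma. The difference ranked 39th of 22180 genes from the highest, and 0.794% of all genes were called higher at ZT11. Leaving out each array in turn kept the difference between 0.46 and 0.54. Among the 6 times the adjusted p was 0.00192, while the 24-h cosine, with an amplitude of 0.096, had an adjusted p of 0.681. The mean was close to the gene median 8 h earlier (-0.0097 at ZT03) and below it 4 h later, so the course was a peak of 1 sampled time. At the remaining times, ZT03, ZT19 and ZT23, means lay from -0.0097 to 0.053 and replicate SDs from 0.089 to 0.22, so their order is not resolved.

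The genes that stand next to Ppp1r10 on its chromosome did not pass at ZT11. These were Mrps18b, a mitochondrial ribosomal protein (0.065, adjusted p = 0.830), and Abcf1, an ATP-binding protein of translation (0.11, adjusted p = 0.549). Neighbours of Ppp1r15a at ZT03 and of Ppp1r15b at ZT23 did not pass either. For Ppp1r15a they were Nucb1 (-0.11, adjusted p = 0.665) and Plekha4 (-0.059, 0.803). For Ppp1r15b they were Pik3c2b (-0.17, adjusted p = 0.172) and Plekha6 (-0.089, 0.603). The Pik3c2b difference was about as large as that of Ppp1r15b itself (-0.17). All these neighbours were chosen after values had been seen. Correlations over the 24 arrays share both the times and the array of each value. With predicted genes left out, 5 single-gene symbols had the highest correlation with Ppp1r10. They were Arsg, a lysosomal sulfatase (r = 0.77), Tmem29 (0.72), Atcayos (0.69), Hlcs, which attaches biotin to carboxylases (0.69), and Nr3c2, the mineralocorticoid receptor (0.69). Of these, Atcayos (0.37) and Hlcs (0.23) were also higher at ZT11 than at the other 5 times. A choice by correlation with a gene that peaks at ZT11 favours such a rise, so it is not separate evidence. As deviations from the time means, the correlations with Ppp1r10 ran from 0.32 (Atcayos) to 0.61 (Arsg).

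Of the 14 measured genes of polymerase II phosphorylation and transcription termination, the setting in which PNUTS works, 3 differed among the times, against 4.72% of all genes. Polr2a, the largest polymerase subunit, fell at night by 0.29 (adjusted p = 4.5e-05), and was higher at ZT11 than at the other 5 times by 0.22 (adjusted p = 0.0179). Xrn2, the exonuclease that ends transcription, peaked at ZT 5.73 with a 1.42-fold change (adjusted p = 0.000103). Supt5, which encodes SPT5, had its lowest mean of -0.27 at ZT23 (adjusted p among times = 0.0408). Polr2a and Xrn2 also passed the rhythm test. Polr2a was the list's only gene called at ZT11, where 0.794% of all genes were called higher. At an unadjusted p below 0.05, 3 of 14 passed at ZT11, a count for which the share over all genes was not computed. Wdr82, a partner of PNUTS in its complex, was instead higher at night by 0.25 (adjusted p = 0.00227). It comes from a separate list of 28 PP1-binding proteins, of which it was the 1 gene called higher at night, against 1.89% of all genes. The complex as a whole was not tested, and its other partners are not shown.

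**Figure D2:**
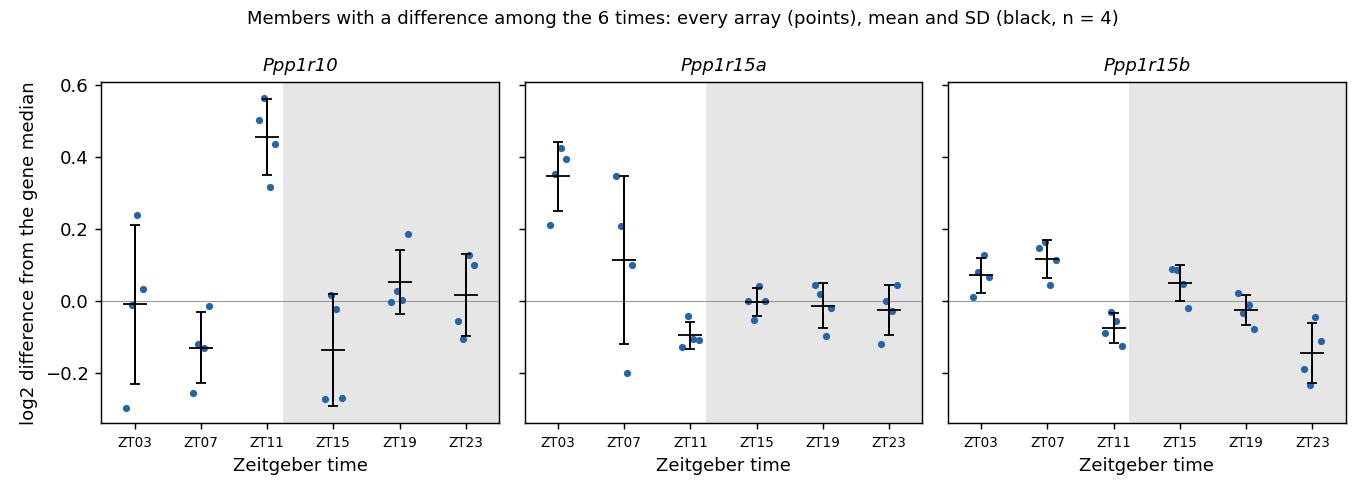
Log2 difference from the gene median (vertical axis) on every array (points) by zeitgeber time (horizontal axis, dark phase shaded) for Ppp1r10, Ppp1r15a and Ppp1r15b, with mean and SD in black (n = 4). The 4 ZT11 arrays of Ppp1r10 lie at 0.32 and above, Ppp1r15a is highest at ZT03 (mean 0.35) and Ppp1r15b lowest at ZT23 (mean -0.15).

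Ppp1r15a and Ppp1r15b share 1 biochemical role and both differed among the times. A different single time was called in each when every contrast was adjusted by itself. Their courses were not compared by a test, and they had parts in common. Against the other 5 times, Ppp1r15a and Ppp1r15b read 0.35 and 0.087 at ZT03, 0.073 and 0.14 at ZT07, and -0.18 and -0.089 at ZT11. Night minus day was -0.14 and -0.078. Of these differences only that of Ppp1r15a at ZT03 passed after adjustment within each contrast. That of Ppp1r15b at ZT07 was close (adjusted p = 0.0558 in limma) and passed when the 6 contrasts were adjusted together (0.0293). GADD34, the product of Ppp1r15a, is made under stress and restores translation by having eIF2α dephosphorylated, and CReP, the product of Ppp1r15b, does the same in unstressed cells. Ppp1r15a read 0.21, 0.35, 0.43 and 0.39 at ZT03, followed by 0.35, 0.21, -0.20 and 0.10 at ZT07 and -0.13, -0.042, -0.11 and -0.11 at ZT11. In the dark it read 0.0010, -0.052, 0.040 and -0.0010 at ZT15, 0.044, 0.020, -0.10 and -0.020 at ZT19, and -0.12, -0.0016, -0.028 and 0.044 at ZT23. Of the other 20 arrays only ZT07 replicate 1 exceeded the lowest ZT03 array, and the dark arrays all stayed within -0.12 and 0.044. The ZT07 arrays were the most uneven of any time for this gene, with an SD of 0.23.

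Ppp1r15a was higher at ZT03 than at the other 5 times by 0.35 ± 0.059 (SE), or 1.28-fold, with an adjusted p of 0.00153 in limma. The difference ranked 81st of 22180 genes from the highest, and 0.956% of all genes were called higher at ZT03. Its adjusted p among the 6 times was 0.00652. The 24-h fit gave an amplitude of 0.15 ± 0.041 and a peak at ZT 3.43, with an adjusted p of 0.0545 that missed the threshold. That fit passed without ZT07 replicate 3 (0.0100), ZT15 replicate 3 (0.0488), ZT23 replicate 1 (0.0318) or ZT23 replicate 3 (0.0491), and also with array weights (0.0323) or protein-coding genes alone (0.0481). Night minus day was -0.14 (adjusted p = 0.0850, and 0.00267 without ZT07 replicate 3).

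The promoter of Ppp1r15a is shown because it held the element bound by cyclic AMP-responsive and ATF factors, which is written in capitals and lies 12 to 5 bases before the start of transcription. The 250 bases before the start occupy chr7:45526269-45526518 on the minus strand of GRCm38.p6 (RefSeq) and are printed 5′ to 3′ in the direction of the gene. Only Ppp1r12c, a myosin phosphatase subunit, held the same letters among the members, 69 to 62 bases before a listed start. For comparison, 30 bases around them are shown (chr7:4501731-4501760, minus strand). This start of Ppp1r12c lies inside the gene, whose 5′ end is at chr7:4503763, whereas the Ppp1r15a window adjoins the 5′ end of its gene.
Ppp1r15a: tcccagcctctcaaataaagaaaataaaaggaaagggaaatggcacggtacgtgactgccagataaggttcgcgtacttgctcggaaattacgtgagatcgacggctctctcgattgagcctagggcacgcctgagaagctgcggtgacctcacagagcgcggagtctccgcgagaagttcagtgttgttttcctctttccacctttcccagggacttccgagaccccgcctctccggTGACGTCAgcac
Ppp1r12c: ggtcggcgccgTGACGTCAatataccgagc
Promoter entries existed for 28 members, 36 entries in all, and for 6 of the 7 genes that passed a test. The letters TGACGTCA, searched on both strands, stood in 2 of the 36, against 1.55% of 32851 promoters. No member's window held more than 1 of the 4 motifs searched. Of the 3 others, also searched on both strands, the clock E-box CACGTG was found in Ppp1r9a alone, against 6.02% of all promoters. The D-box TTATGTAA, in 0.819% of all promoters, and the ROR and REV-ERB core TAGGTCA, in 2.23%, were in no member's window. Ppp1r12c, which shares the element, passed no test of time.

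Ppp1r15b was low at the end of the night. It read -0.19, -0.23, -0.046 and -0.11 at ZT23. The light times gave 0.011, 0.081, 0.13 and 0.066 at ZT03, 0.15, 0.16, 0.045 and 0.11 at ZT07, and -0.090, -0.031, -0.055 and -0.13 at ZT11. The remaining dark times gave 0.088, 0.087, 0.047 and -0.019 at ZT15 and 0.022, -0.033, -0.011 and -0.078 at ZT19. ZT11 was thus low as well, and the 4 arrays of ZT11 overlapped those of ZT23. All 4 arrays of ZT03 and of ZT07 were above all 4 of ZT11 and of ZT23. These times were picked after values had been seen, and the share of all genes with such a separation was not counted.

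ZT23 was lower than the mean of the other 5 times by 0.17 ± 0.032 (SE), or 1.13-fold lower, with an adjusted p of 0.00673 in limma, and 1.09% of all genes were called lower at that time. This call was lost without ZT23 replicate 2, where the difference was -0.14 and the adjusted p 0.0563. The difference among the 6 times held without any 1 array (adjusted p = 0.00170, from 0.000718 to 0.00618). Replicates of Ppp1r15b were closer than those of most members, with a pooled SD of 0.055. Its 2 low times, ZT11 and ZT23, are 12 h apart, and it had a 12-h component of amplitude 0.11 in a fit that also held the 24-h terms (adjusted p = 0.0511). No member and no gene passed that test in limma (0.00% of all genes), and at an unadjusted p below 0.05 there were 5 members (14.3%), against 6.32% of all genes. Ppp1r15b passed it without ZT03 replicate 1 or ZT23 replicate 3, with adjusted p down to 0.0247.

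Of the 20 measured genes of the eIF2α kinases and the response they drive, 3 both had a rhythm and differed among the times, against 4.06% of all genes. Ddit3, which encodes the stress factor CHOP, a known inducer of GADD34, was lower at ZT03 than at the other 5 times by 0.42 ± 0.080 (SE), with an adjusted p of 0.00524. ZT03 was the time at which Ppp1r15a was highest. Cebpb, a partner of CHOP, peaked at ZT 12.5 with a 1.39-fold change (adjusted p = 0.000189). Vldlr, a lipoprotein receptor induced in this response, peaked at ZT 5.97 with a 1.16-fold change (adjusted p = 0.0278). Unlike Ddit3, Vldlr was higher at ZT03 than at the other 5 times, by 0.17 (adjusted p = 0.0405). The list thus held 1 gene called lower and 1 called higher at ZT03, against 0.505% and 0.956% of all genes. Atf4, the factor translated when eIF2α is phosphorylated, read -0.083 at ZT03 and did not pass among the times (adjusted p = 0.499). The kinase genes Eif2ak3 (adjusted p = 0.546) and Eif2ak4 (0.322) did not pass either, and these 3 were named after values had been seen.

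Among the 5 myosin phosphatase and related subunits, Ppp1r16b and Ppp1r12b had a rhythm, and they peaked about 10 h apart. Ppp1r16b encodes TIMAP, a membrane-anchored subunit known mainly from endothelial cells. In the dark it read -0.0034, -0.12, 0.18 and 0.059 at ZT15, 0.12, 0.024, 0.34 and -0.028 at ZT19, and 0.36, 0.19, 0.026 and 0.12 at ZT23. In the light it read -0.20, 0.0034, -0.11 and -0.14 at ZT03, -0.20, 0.047, -0.35 and -0.27 at ZT07, and 0.038, -0.019, -0.10 and -0.075 at ZT11. Of the 12 night arrays 11 lay above the median of the day arrays, and the lowest night arrays overlapped the highest day arrays.

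Ppp1r16b peaked at ZT 19.5 ± 0.86 h (SE) with an amplitude of 0.16 ± 0.037 (SE), a 1.25-fold change between trough and peak (adjusted p = 0.0168 in limma). At night it rose by 0.22 ± 0.051 (SE), or 1.16-fold, relative to day (adjusted p = 0.0129), with night values of -0.12, 0.087 and 0.36 and day values of -0.35, -0.11 and 0.047 as the lowest, median and highest. It was the only member called higher at night, against 1.89% of all genes. Leaving out any 1 array kept both calls, and leaving out the 3 arrays of lowest weight together raised the adjusted p of the rhythm to 0.0547 while night minus day kept its call. Of 6 endothelial marker genes, 1 (Kdr) had a rhythm, against 7.61% of all genes, with its peak in the light. None was called between night and day, against 4.39% of all genes. The mean over the list lay from -0.10 to 0.14 in the night arrays and from -0.14 to 0.17 in the day arrays. At an unadjusted p below 0.05, 2 of the 6 differed between night and day, against 16.4% of all genes. Macrophage markers were higher at night in 4 of 6 genes and platelet markers in 3 of 5, against 1.89% of all genes. The macrophage list mean was -0.024 to 0.20 in night arrays and -0.33 to 0.090 in day arrays. The platelet list mean was -0.018 to 1.05 in night arrays and -0.29 to -0.050 in day arrays. Their part in the results for Ppp1r16b, and for Ppp1r35 described below, was not tested.

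Ppp1r12b encodes MYPT2, the targeting subunit of myosin phosphatase in striated muscle. It read -0.13, -0.10, 0.0070 and 0.079 at ZT03, 0.13, 0.075, 0.11 and 0.076 at ZT07, and 0.015, -0.030, 0.042 and 0.18 at ZT11. In the dark it read 0.077, 0.072, -0.017 and -0.029 at ZT15, -0.14, -0.078, -0.15 and 0.014 at ZT19, and -0.019, -0.20, -0.051 and -0.0070 at ZT23. All 4 arrays of ZT07 were above all 4 of ZT19 and of ZT23, times picked after values had been seen. How many of all genes separate in this way was not counted. The peak fell at ZT 9.43 ± 0.93 h (SE) with an amplitude of 0.089 ± 0.022, a 1.13-fold change (adjusted p = 0.0282). The call was lost without ZT07 replicate 1, ZT07 replicate 3, ZT11 replicate 4, ZT19 replicate 1, ZT19 replicate 3 or ZT23 replicate 2, with adjusted p up to 0.0667. Of 9 ventricular cardiomyocyte markers 2, Ttn and Ryr2, had a rhythm, against 7.61% of all genes. Both peaked in the light and both were lower at night, against 2.49% of all genes. The mean over the list lay from -0.069 to 0.012 in night arrays and from -0.042 to 0.076 in day arrays. Of 8 smooth muscle and pericyte markers 0 had a rhythm in limma, against 7.61% of all genes. At an unadjusted p below 0.05, 4 of the 8 passed the rhythm test, against 19.5% of all genes. The part of these markers in the result for Ppp1r12b was not tested.

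The remaining subunits of that family did not pass any test. Ppp1r12a, which encodes MYPT1, the smooth muscle form, had time means of -0.12 to 0.060, Ppp1r12c -0.069 to 0.052 and Ppp1r16a, which encodes MYPT3, -0.095 to 0.12.

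**Figure D3:**
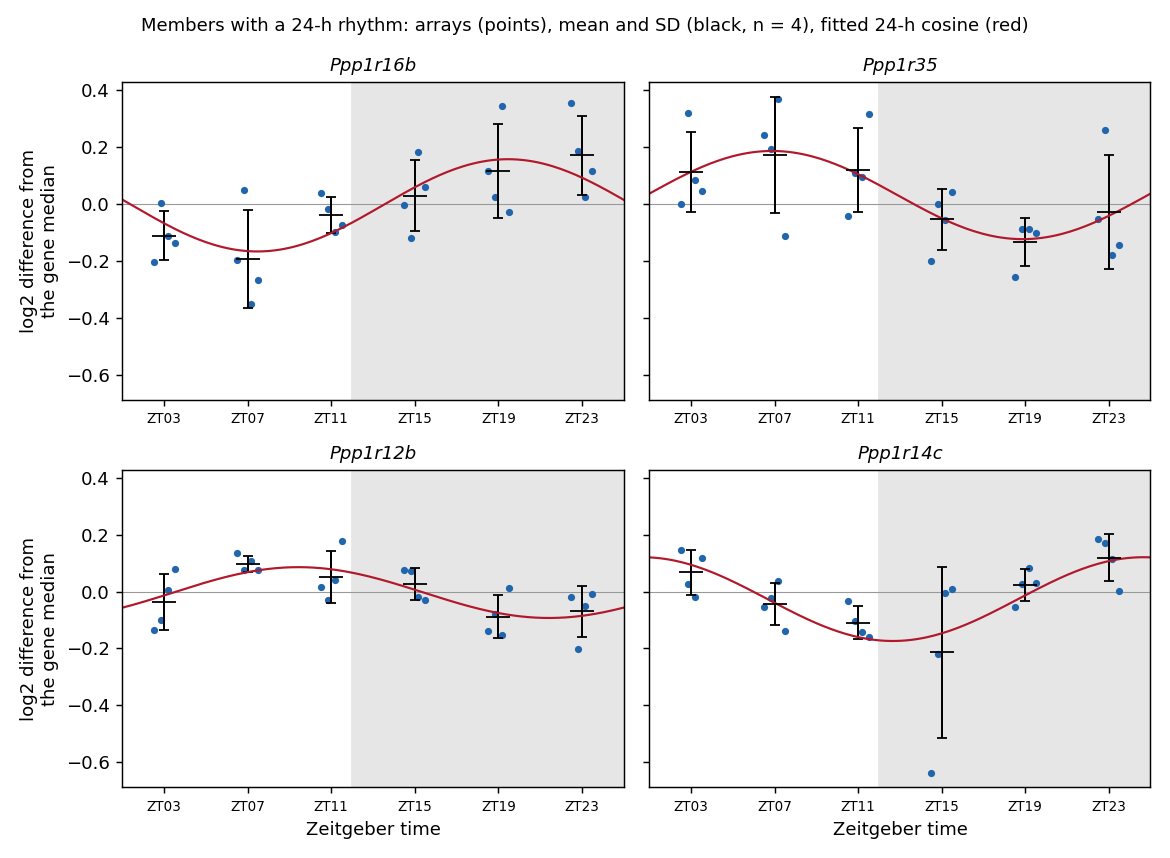
Log2 difference from the gene median (vertical axis) on every array (points) by zeitgeber time (horizontal axis, dark phase shaded) for the 4 genes with a 24-h rhythm, with mean and SD in black (n = 4) and the fitted cosine in red. Ppp1r16b peaks at ZT 19.5, Ppp1r14c at ZT 0.658, Ppp1r35 at ZT 6.88 and Ppp1r12b at ZT 9.43, and ZT15 replicate 1 of Ppp1r14c lies apart at -0.64.

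Of the 12 genes of the inhibitor group, 2 of them pseudogenes, only Ppp1r14c passed a test. It encodes KEPI, a relative of CPI-17 that inhibits PP1 once protein kinase C has phosphorylated it. The light phase gave 0.15, 0.027, -0.021 and 0.12 at ZT03, -0.054, -0.023, 0.039 and -0.14 at ZT07, and -0.032, -0.10, -0.14 and -0.16 at ZT11. The dark phase gave -0.64, -0.22, -0.0048 and 0.0076 at ZT15, -0.054, 0.028, 0.084 and 0.031 at ZT19, and 0.18, 0.17, 0.12 and 0.0025 at ZT23. ZT15 replicate 1 was the lowest value of any member on any array, and the 4 arrays of ZT23 were all above 0.

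The peak of Ppp1r14c fell at ZT 0.658 ± 0.97 h (SE), near lights-on, with an amplitude of 0.15 ± 0.037, a 1.23-fold change (adjusted p = 0.0369). Without ZT15 replicate 1 the amplitude was 0.11 and the adjusted p 0.00453. The call was lost without ZT03 replicate 1, ZT03 replicate 4, ZT11 replicate 3, ZT11 replicate 4, ZT15 replicate 2 or replicate 1, 2 or 3 of ZT23, with adjusted p up to 0.0712. The gene is read by 2 probe sets that correlated by only r = 0.14 over the 24 arrays. Fitted apart, an analysis added after the data had been seen, they peaked at ZT 2.42 and ZT 21.7, and neither had a rhythm after adjustment over 23521 probe sets (adjusted p = 0.0773 and 0.0564). Among the 6 times the second passed (adjusted p = 0.0221), with its highest mean of 0.26 at ZT23, and the first did not (0.218).

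The other inhibitors had no call in any test of time. Ppp1r1a, inhibitor-1, had time means of -0.063 to 0.062, a range of 0.125 with a replicate SD of 0.089. Ppp1r2, inhibitor-2, had means of 0.086 at ZT03 and -0.14 at ZT11, its highest and lowest times. Ppp1r11, inhibitor-3, ranged over 0.0863 and Ppp1r14a, the smooth muscle inhibitor CPI-17, over 0.222. Ppp1r14b, Ppp1r14bl, Ppp1r14d, Ppp1r17, Ppp1r1c and the pseudogenes had ranges of 0.0438 to 0.123. Of the 14 measured PP1-regulated cardiac phosphoproteins and their kinase, 3 had a rhythm, against 7.61% of all genes, and all 3 peaked in the light. Prkar1a, a regulatory subunit of cyclic AMP-dependent kinase, peaked at ZT 3.83 with a 1.40-fold change (adjusted p = 2.43e-05). Mybpc3, cardiac myosin-binding protein C, peaked at ZT 8.20 with 1.26-fold (adjusted p = 0.00936), and Ryr2, the calcium release channel, at ZT 5.53 with 1.12-fold (adjusted p = 0.00910).

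Among 7 less studied members Ppp1r35 alone passed a test. Its human counterpart is a centriolar protein needed for centriole elongation. At night it read -0.20, 7.0e-05, -0.058 and 0.042 at ZT15, -0.26, -0.090, -0.086 and -0.10 at ZT19, and -0.054, 0.26, -0.18 and -0.14 at ZT23. In the day it read -7.0e-05, 0.32, 0.084 and 0.046 at ZT03, 0.24, 0.19, 0.37 and -0.11 at ZT07, and -0.041, 0.11, 0.10 and 0.32 at ZT11. The phases overlapped, with ZT23 replicate 2 high among the night arrays and ZT07 replicate 4 low among the day arrays, and 1 of 12 night arrays lay above the day median.

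Ppp1r35 peaked at ZT 6.88 ± 0.97 h (SE) with an amplitude of 0.16 ± 0.039, a 1.24-fold change (adjusted p = 0.0367). It fell at night by 0.21 ± 0.059 (SE) relative to day, 1.15-fold lower (adjusted p = 0.0475), and was the only member called lower at night, against 2.49% of all genes. Both calls were close to the threshold. The rhythm was lost without replicate 1, 2 or 3 of ZT07, ZT15 replicate 3, any array of ZT19, or replicate 1 or 3 of ZT23, with adjusted p up to 0.0900. The night difference was lost without any of 19 arrays, all but ZT03 replicate 1, ZT07 replicate 4, ZT11 replicate 1, ZT15 replicate 4 and ZT23 replicate 2, with adjusted p up to 0.0881. Night and day differed in 5.71% of the members, against 4.39% of all genes, and at an unadjusted p below 0.05 in 9 members, against 16.4%.

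No member of the actin-binding, ASPP or other nuclear groups passed. Neurabin (Ppp1r9a), spinophilin (Ppp1r9b) and phostensin (Ppp1r18), which bring PP1 to actin, had time means that ranged over 0.196, 0.268 and 0.136, and 1 of the 3 passed the rhythm test at an unadjusted p below 0.05. Ppp1r18 averages 2 probe sets that did not correlate over the 24 arrays (r = -0.037). Time means ran from -0.14 at ZT23 to 0.067 at ZT19 in the first. In the second they ran from -0.038 at ZT11 to 0.037 at ZT19. Ppp1r13b, which encodes the p53-binding protein ASPP1, was close to the threshold. Its means were -0.063, -0.029 and -0.036 in the light, and 0.19, 0.11 and -0.13 at ZT15, ZT19 and ZT23, with adjusted p of 0.0653 for the rhythm and 0.0648 among the times. Its inhibitory relative Ppp1r13l (iASPP) ranged over 0.190. Among nuclear subunits besides Ppp1r10, Ppp1r7 (SDS22), Ppp1r8 (NIPP1) and Ppp1r26 ranged over 0.190, 0.162 and 0.178. The less studied Ppp1r21, Ppp1r27, Ppp1r32, Ppp1r36, Ppp1r37 and Ppp1r42 ranged over 0.0447 to 0.237.

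The catalytic subunits themselves did not pass a test of time. Ppp1ca, Ppp1cb and Ppp1cc had adjusted p of 0.193, 0.382 and 0.720 for the rhythm and 0.496, 0.621 and 0.747 among the times in limma, and 1 of the 3, Ppp1ca, passed the rhythm test at an unadjusted p below 0.05. Of 28 other PP1-binding proteins outside the Ppp1r names, 3 had a rhythm, against 7.61% of all genes. At an unadjusted p below 0.05 there were 10, against 19.5% of all genes. Akap1, which anchors kinase and PP1 at mitochondria, peaked at ZT 2.54 with a 1.43-fold change (adjusted p = 7.78e-06). Wdr82 peaked at ZT 17.97 with 1.29-fold (adjusted p = 0.00133). Csrnp1, a nuclear PP1-binding protein, peaked at ZT 10.8 with 1.34-fold (adjusted p = 0.0149). At ZT11 against the other 5 times, Csrnp1, like Ppp1r10, was higher (by 0.41, adjusted p = 0.00210), and Akap1 was lower (-0.23, adjusted p = 0.0403). Of the 28, these were the 1 gene called higher and the 1 called lower at ZT11, against 0.794% and 0.636% of all genes.

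**Figure D4:**
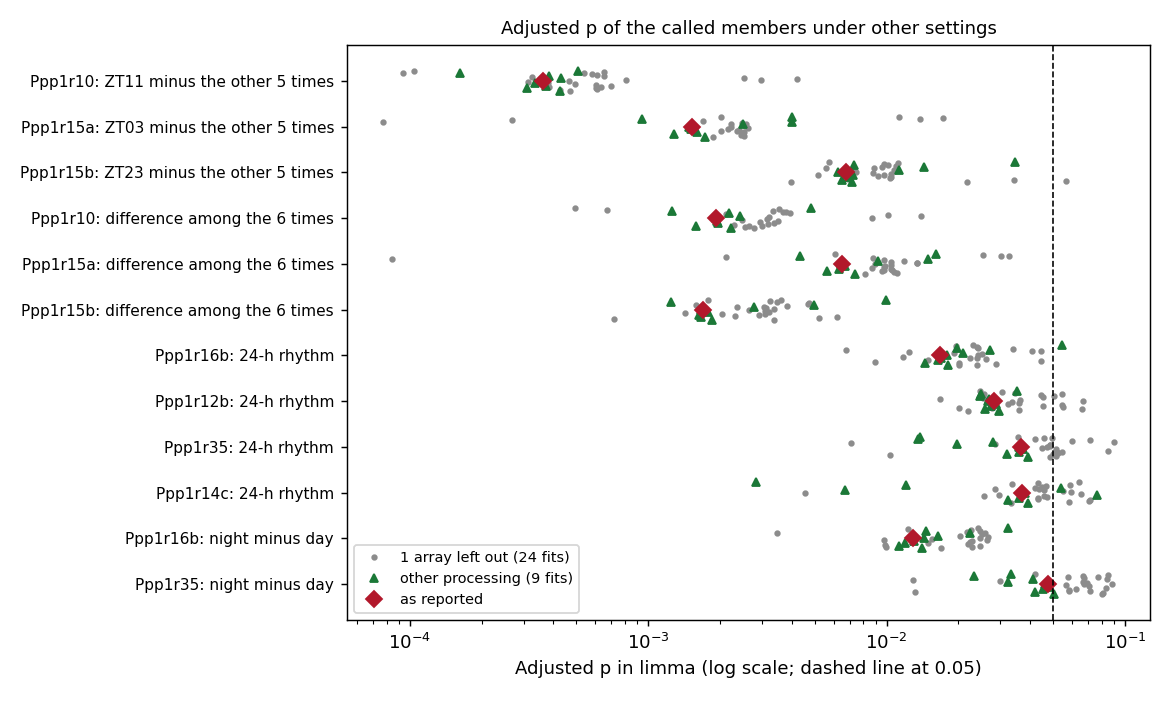
Adjusted p in limma (horizontal axis, log scale, dashed line at 0.05) for each call of the 7 genes (rows), as reported (red), with 1 array left out (grey, 24 fits) and under 9 other ways of processing (green). The calls of Ppp1r10 and Ppp1r15a stay left of the line in every fit, while those of Ppp1r35, Ppp1r14c and Ppp1r12b cross it.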

How the data were processed

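RNA of mouse heart was measured on 24 Affymetrix arrays, 4 at each of 6 times. The authors deposited 1 value per probe set and array, read here as log2 values. The base is not stated, so fold changes rest on base 2. How the authors corrected background, summarised probes and normalized arrays is not given in the sources used here. Each probe set's median over the arrays is 0 within 5e-07, so neither a level nor a filter on dim probes was possible.

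Of 34351 probe sets, 23521 named 1 gene in the platform annotation and were averaged per gene (22180 genes). 1814 named several and 9016 none. limma 3.58.1 (R 4.3.3) fitted all genes and arrays together without a block, with Benjamini-Hochberg adjustment and a threshold of 0.05. Contrasts of a time against the other 5 were adjusted within each contrast. Adjusted over the 6 contrasts together, Ppp1r10 (0.000551), Ppp1r15a (0.00243) and Ppp1r15b (0.00643) kept their calls. Ppp1r15b was then also called higher at ZT07, by 0.14 (adjusted p = 0.0293 in limma). That rise had missed the threshold within its own contrast (0.0558). The fits were tested on simulated data. P-values measure the spread between arrays, since it is not stated whether each came from its own mouse.

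Members and gene lists were chosen with earlier results of these data known. The result of 1 gene list is not reported here. Every member past a threshold is given in full, with up to 4 genes of smallest p among the times per pathway list and the 5 genes most correlated with Ppp1r10. The alternatives were arrays left out, array weights, a replicate block, 2 other normalizations, 2 probe set rules, protein-coding genes only and robust eBayes. Promoters came from RefSeq (GRCm38.p6). A planned search of protein sequences for the PP1 docking motif was not run, because no protein table was at hand.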

Additional observations from a re-analysis of the deposited data

Results flagged for a closer look

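Within a set of 4 arrays, 1 value lay far from the other 3 in 7 of 210 sets of member and time (3.33%), by a test of the gap against the whole range that chance passes in about 1 in 20. Ppp1r10 read 0.19 in ZT19 replicate 4, against -0.0024 to 0.026 in the others. Ppp1r35 read -0.26 in ZT19 replicate 1, against -0.10 to -0.086, and its calls were lost without that array. Ppp1r1a read -0.039 in ZT15 replicate 1, against 0.086 to 0.10, and Ppp1r14b read 0.072 in ZT11 replicate 2, against -0.12 to -0.092. Ppp1r26 read -0.014 in ZT23 replicate 1, against -0.21 to -0.19. The pseudogene Ppp1r2-ps7 read 0.18 in ZT23 replicate 2, against -0.011 to 0.0013, and 0.014 in ZT19 replicate 2, against -0.0015 to 0.00020.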

How the results depend on the processing

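The 3 genes that differed among the 6 times, Ppp1r10, Ppp1r15a and Ppp1r15b, kept that call under all 24 fits without 1 array and all 9 other alternatives. Leaving out 1 array gave 2 to 5 members with a rhythm, 3 to 4 that differed among the times, 2 to 4 high or low at a single time, 1 to 3 between night and day, and 0 to 1 with a 12-h component. Ppp1r13b, with no call in the full data, was among those gained, as in the fits without ZT11 replicate 4 or ZT23 replicate 4. Quantile normalization gained Ppp1r13b for the rhythm and among the times and Ppp1r9a between night and day, and array weights and protein-coding genes alone gained the rhythm of Ppp1r15a. Array weights also gained Ppp1r15b between night and day. Robust eBayes left 1 member between night and day, Ppp1r16b (Ppp1r35 had an adjusted p of 0.0505). Array weights, arrays centred on their median and protein-coding genes alone each gave 1 member with a 12-h component, Ppp1r15b, among 4, 4 and 5 genes in all, against 0 in the full fit. Leaving out the 3 arrays of lowest weight lost the rhythm of Ppp1r16b and gained Ppp1r13b for the rhythm, Ppp1r14c among the times and Ppp1r21 between night and day, and using the probe set of largest SD lost that of Ppp1r14c (0.0762). No called difference of a single time from the others, or of night from day, changed direction. Amplitudes and ranges of time means have no direction, shifts of peak time were not followed, and the causes were not tested. Replicate numbers did not pair the arrays: deviations of same-numbered arrays correlated by -0.228 to 0.226, with 5 of 60 pairs over 0.1, and 8 of 24 arrays correlated best with one of their own number. With the replicate block, 3 members had a rhythm, since Ppp1r14c had an adjusted p of 0.0541, and the block changed no other member call. Signal over background is unknown, so faint probe sets could not be set aside.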
